A study of Mus musculus with 6 samples.

Results

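The 10 genes described here encode SR protein splicing factors: *Srsf1*, *Srsf2*, *Srsf3*, *Srsf4*, *Srsf5*, *Srsf6*, *Srsf7*, *Srsf9*, *Srsf10* and *Srsf11*. They were chosen by their symbols and make up 10 of 52089 symbols and 126 of 168021 transcript accessions in the deposited table. The study asked how the long noncoding RNA *Ctcflos* contributes to the browning of white adipocytes and to alternative splicing in these cells. Preadipocytes of the stromal-vascular fraction of inguinal white adipose tissue of 129SvEv mice were induced for 2 days, then differentiated in the presence of rosiglitazone, which gives primary brite adipocytes, that is, thermogenic adipocytes of white depots. On day 1 of differentiation, the cells for 3 libraries were reverse transfected with an LNA gapmer antisense oligonucleotide against *Ctcflos* (KD) and those for the other 3 with a nontargeting LNA gapmer (controls), both at 50 nM, and RNA was taken 24 h later. Both groups therefore share the genotype, the rosiglitazone and a gapmer transfection, the KD rests on a single oligonucleotide sequence, and an untransfected group was not analysed here. The labels do not say whether libraries of a group came from separate cell preparations, so that p-values measure only the spread between these libraries.

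SR proteins bind pre-mRNA through RNA recognition motifs and recruit the spliceosome through a domain rich in arginine and serine. Kinases of the SRPK family phosphorylate this domain in the cytoplasm, the transportin TNPO3 carries the proteins into the nucleus, and CLK kinases release them from nuclear speckles, where they are stored. Many SR genes limit their own expression: an extra exon with a stop codon, called a poison exon, is spliced in and sends the transcript to nonsense-mediated decay (NMD). In adipocytes, SR proteins are known to act on the splicing of regulators of lipid metabolism.

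The poison exons are shown because they are the part of these transcripts that tells the unproductive form from the coding form. Of 15 NMD transcripts of the 10 genes with an annotated stop codon in Gencode vM21 (GRCm38), 9 end their reading frame in an exon that no coding transcript of the gene overlaps. The following 5 sequences each run from the exon start to the stop codon, 5′ to 3′ on the strand of the gene, with the stop codon in capitals.
Srsf3, ENSMUST00000037776, chr17:29039454-29039487, plus strand: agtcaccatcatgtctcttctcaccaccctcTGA
Srsf7, ENSMUST00000234503, chr17:80205054-80205081, minus strand: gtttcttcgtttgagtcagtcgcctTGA
Srsf4, ENSMUST00000129966, chr4:131884276-131884390, plus strand: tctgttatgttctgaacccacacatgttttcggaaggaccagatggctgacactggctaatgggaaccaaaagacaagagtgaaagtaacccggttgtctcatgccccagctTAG
Srsf11, ENSMUST00000126716, chr3:158024209-158024231, minus strand: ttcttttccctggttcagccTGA
Srsf11, ENSMUST00000147304, chr3:158023310-158023359, minus strand: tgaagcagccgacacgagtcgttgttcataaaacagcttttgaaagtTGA
The whole exons measure 456, 460, 207, 109 and 117 bases in this order. The stop codon of *Srsf3* ends 34 bases and that of *Srsf7* ends 28 bases into the exon, so that most of either exon lies behind the stop. The *Srsf3* and *Srsf7* forms correspond to the RefSeq RNAs NR_036613 and NR_036615, both of which have values in the table.

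Values are given as RPKM, which divides the reads on a transcript by its length and by the mapped reads of the library, and the value of a gene is the mean over its accessions, which overlap and share reads. From the low values, a depth of 60.7 to 75.4 mio mapped reads was recovered for the KD libraries and of 62.9 to 79.1 mio for the controls. *Ctcflos*, listed as 1300015D01Rik, had 0.0969, 0.0705 and 0.210 RPKM left in KD replicates 1, 2 and 3, beside 0.748, 0.751 and 0.840 RPKM in control replicates. That leaves 16.1% of the control level. On log2(RPKM + 1), which understates changes of low genes, the log2 fold change was -0.66 with a standard error of 0.0840 (adjusted p = 0.0254 by limma without a filter on low values). On log2(RPKM + 0.1) it was -2.01. KD replicate 3 had the highest residual *Ctcflos* and the lowest depth. Without it, limma called 23.3% of all genes tested higher in KD, and without any other single library from 1.11 to 5.34%. The adipocyte markers *Pparg*, *Cebpa*, *Fabp4*, *Adipoq*, *Plin1*, *Lpl* and *Cidec* were all above the filter, with summed RPKM of 4397 to 5864 in KD and 6053 to 6707 in controls, and 1 of the 7 (*Cebpa*) was called lower. *Fabp4* carried most of this sum. *Cidec* overlapped, at 449.2 to 559.8 RPKM in KD and 451.4 to 477.9 RPKM in controls, while each of the others was lower in every KD library than in every control. The 4 brite markers summed to 16.9 to 30.3 RPKM in KD and 33.4 to 77.8 RPKM in controls, and 2 of them were called lower, *Ppargc1a* and *Ucp1*. *Ucp1*, the uncoupling protein of thermogenic adipocytes, carried most of this sum, with 12.4 to 26.1 RPKM in KD and 27.1 to 67.1 RPKM in controls. *Cidea* overlapped between the groups. *Dio2*, which lay under the filter, went the other way without overlap, at 0.293 to 0.589 RPKM in KD and 0.128 to 0.256 RPKM in controls. The 6 preadipocyte or stromal markers summed to 195.6 to 411.6 RPKM in KD and 293.3 to 469.4 RPKM in controls, with 1 (*Pdgfra*) called lower. The 4 measured macrophage or leukocyte markers summed to 3.32 to 5.44 RPKM in KD and 0.953 to 2.83 RPKM in controls, with *Ptprc* and *Itgam* near 0. Of these, *Cd68* was called higher (2.16 to 4.12 RPKM in KD and 0.657 to 1.92 RPKM in controls), and *Csf1r* was at 1.10 to 1.48 RPKM in KD and 0.269 to 0.833 RPKM in controls. Among the epithelial or mesothelial markers, *Krt19* carried nearly all of the sum, which was 8.30 to 30.1 RPKM in KD and 6.45 to 9.63 RPKM in controls. The part of these cell type differences in the results was not tested, and in bulk RNA fewer cells of a type and less RNA per cell cannot be told apart.

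*Srsf7*, *Srsf2* and *Srsf11* rose in *Ctcflos* KD, by 1.5, 1.33 and 1.34 times in mean RPKM. The other 7 SR genes did not pass the test, and none was called lower. This is 3 of 10 genes at an adjusted p under 0.05 (limma-trend on log2(RPKM + 1), Benjamini-Hochberg adjustment over all 11701 genes whose mean RPKM reached 1). Over all genes tested, 11.5% were called higher and 12.4% lower. All 10 SR genes passed the filter on low values. By unadjusted p, 5 of 10 were under 0.05, all of them with a positive fold change, where 38.9% of all genes were under 0.05 in either direction. In 7 of 10 genes every KD library lay above every control library, which held for 22.9% of all genes. The fold change was positive in 9 of 10 SR genes, with a median log2 value of 0.27, beside a median of 0.028 and 53.2% positive values over all genes tested.

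**Figure D1:**
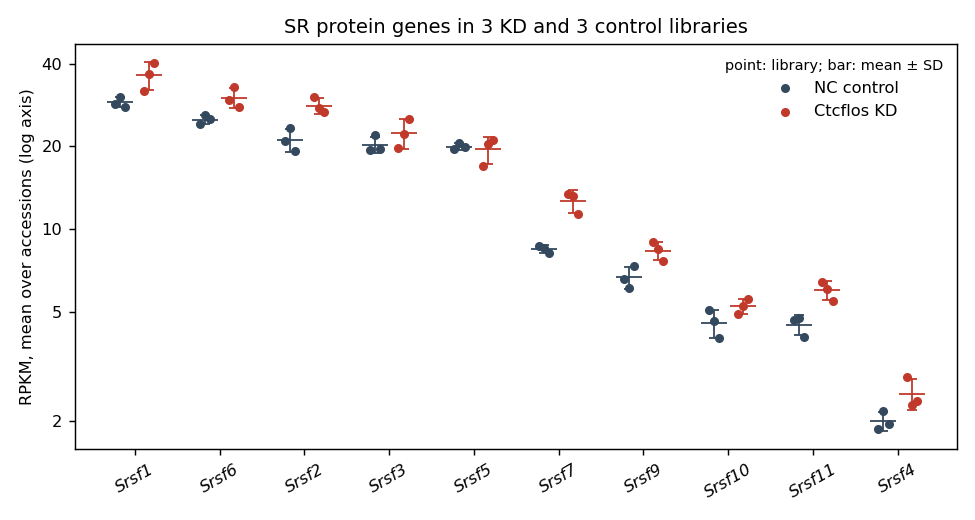
RPKM of the 10 SR protein genes on a log axis, ordered by their control mean, with a point for each library and the mean ± SD (n = 3) of *Ctcflos* KD (red) and controls (dark). *Srsf7* stood at 8.17 to 8.72 RPKM in controls and at 11.3 to 13.5 RPKM in KD, while *Srsf3*, *Srsf5* and *Srsf10* had overlapping libraries.

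*Srsf7*, a small SR protein with a zinc knuckle that also takes part in mRNA export and choice of poly(A) sites, had the highest fold change of the 10 genes. KD replicates 1 to 3 had 13.5, 13.3 and 11.3 RPKM, whereas control replicates had 8.72, 8.56 and 8.17 RPKM. The lowest KD library was above the highest control, and the controls varied little (12.7 ± 1.19 RPKM in KD and 8.48 ± 0.281 RPKM in controls, SD, n = 3). This is a log2 fold change of 0.53 with a standard error of 0.108 (adjusted p = 0.0154, limma). *Srsf7* was called in 8 of 12 alternative settings, and its adjusted p by limma was 0.0505 without KD replicate 1, 0.0511 without KD replicate 2, 0.0656 without control replicate 1 and 0.0805 without control replicate 3.

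*Srsf2* (SC35) binds exonic splicing enhancers, and antibodies called anti-SC35 are the usual stain for nuclear speckles. It was measured at 30.4, 27.5 and 26.6 RPKM in KD and at 21.0, 23.3 and 19.2 RPKM in control libraries. The groups did not overlap, and the controls spread as widely as the KD libraries (28.2 ± 1.95 RPKM in KD and 21.2 ± 2.08 RPKM in controls, SD, n = 3). This is a log2 fold change of 0.40 with a standard error of 0.121 (adjusted p = 0.0476, limma). This call was held when KD replicate 3 was left out (adjusted p = 0.0288) and lost when any other library was left out, with adjusted p of 0.0591 to 0.192. It was also lost with scaling by the median of ratios (adjusted p = 0.0610, limma) and without the filter on low values (adjusted p = 0.0789, limma). On the opposite strand *Srsf2* is overlapped by *Mettl23* and *Mfsd11*, and since no source says whether counting was strand-specific, reads of these genes cannot be told apart from those of *Srsf2*.

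*Srsf11* (p54), a relative of the classical SR proteins found with the spliceosome and in speckles, was at 6.43, 6.07 and 5.49 RPKM in KD. The controls had 4.67, 4.74 and 4.06 RPKM. Again no KD library fell into the range of the controls (5.997 ± 0.471 RPKM in KD and 4.49 ± 0.371 RPKM in controls, SD, n = 3). This is a log2 fold change of 0.35 with a standard error of 0.103 (adjusted p = 0.0429, limma). This call was likewise held without KD replicate 3 (adjusted p = 0.0148) and lost without any other library, at 0.0752 to 0.176. Scaling by the median of ratios gave 0.0511 and no filter on low values 0.0834. When the median over the accessions replaced their mean, the log2 fold change was 0.00, where the middle of the 21 accessions is the clone AK040467, whose libraries overlapped between the groups. On its own strand *Srsf11* is overlapped by *Gm43362*, and reads of the shared stretch cannot be told apart.

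In 4 further genes the libraries did not overlap, and the change did not pass the adjusted threshold. *Srsf1* (ASF/SF2), the archetype of the family and a regulator of constitutive and alternative splicing, had 31.9, 36.7 and 40.3 RPKM in KD and 28.7, 30.4 and 27.9 RPKM in controls (log2 fold change 0.31 with a standard error of 0.126, adjusted p = 0.108, limma). KD replicate 1 was close to the highest control, and KD replicate 3 was far above it. *Gm11508* overlaps *Srsf1* on the opposite strand. *Srsf9*, a short SR protein closely related to *Srsf1*, had 8.95, 8.45 and 7.67 RPKM in KD and 6.57, 6.13 and 7.34 RPKM in controls (log2 fold change 0.29, adjusted p = 0.0903, limma). It was called only when KD replicate 3 was left out, among the alternatives tried. *Srsf6* (SRp55) had 29.6, 32.8 and 27.9 RPKM in KD and 24.1, 25.9 and 25.2 RPKM in controls (log2 fold change 0.25, adjusted p = 0.140, limma). *Srsf4* (SRp75), which has the longest RS domain of the classical members, had 2.89, 2.30 and 2.37 RPKM in KD and 1.88, 2.17 and 1.95 RPKM in controls (log2 fold change 0.23, adjusted p = 0.134, limma). Its lowest KD library lay just above its highest control. *Srsf4* is overlapped by *A930004J17Rik* on its own strand and by *Gm12992* on the other.

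*Srsf3*, *Srsf5* and *Srsf10* had libraries that overlapped between the groups. *Srsf3* (SRp20), the smallest SR protein, was at 19.7, 22.2 and 25.2 RPKM in KD and 19.4, 21.9 and 19.6 RPKM in controls (log2 fold change 0.13, adjusted p = 0.474, limma). *Srsf5* (SRp40), known as an insulin-responsive splicing factor, was at 17.0, 20.5 and 21.1 RPKM in KD and 19.5, 20.6 and 19.9 RPKM in controls. It had the lowest fold change of the family, -0.04 on the log2 scale (adjusted p = 0.832, limma), and without KD replicate 1 the value was 0.05. *Srsf10* (SRp38), which represses splicing when it is dephosphorylated, was at 4.92, 5.26 and 5.59 RPKM in KD and 5.07, 4.61 and 4.003 RPKM in controls (log2 fold change 0.17, adjusted p = 0.266, limma). The RefSeq mRNAs NM_001080387 and NM_010178 of this gene stood in a ratio of 3.02, 3.80 and 2.103 in KD and 2.44, 2.66 and 2.26 in controls (exact permutation p = 0.4, two-sided).

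**Figure D2:**
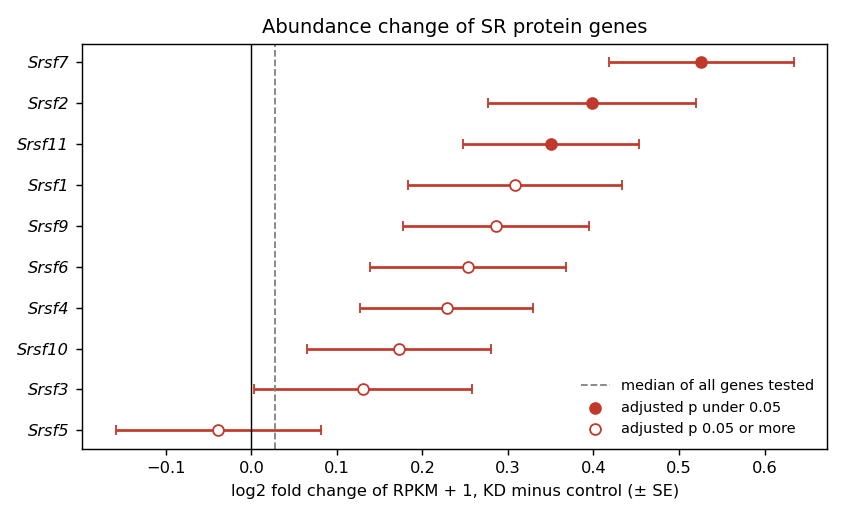
Log2 fold change of RPKM + 1 between *Ctcflos* KD and controls with its standard error from limma, filled where the adjusted p is under 0.05. The values run from -0.04 in *Srsf5* to 0.53 in *Srsf7*, and the dashed line marks the median of all genes tested at 0.028.

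The KD libraries did not rank alike in all members. Replicate 1 was the highest library for 5 genes (*Srsf2*, *Srsf4*, *Srsf7*, *Srsf9* and *Srsf11*), replicate 3 for 4 (*Srsf1*, *Srsf3*, *Srsf5* and *Srsf10*) and replicate 2 for *Srsf6*. The summed RPKM of the 10 genes was 165.2, 175.0 and 173.5 in KD and 139.5, 148.4 and 137.3 in controls. Every KD sum was above every control sum, and the KD mean came to 120.9% of the control mean (171.2 ± 5.25 and 141.7 ± 5.87 RPKM, SD, n = 3). The exact two-sided permutation test gave p = 0.1, which is the smallest value that 3 libraries against 3 allow.

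Since RPKM is scaled to length, levels can be ordered across genes. The order given here is of means over all accessions, and with RefSeq mRNAs alone it differed: in controls *Srsf6* was then at 19.0 RPKM, below *Srsf2* (24.9 RPKM), *Srsf3* (21.97 RPKM) and *Srsf5* (20.1 RPKM), and in KD *Srsf2* (32.6 RPKM) was above *Srsf1* (31.0 RPKM). Over all accessions, in controls *Srsf1* had the highest level at 29.0 ± 1.254 RPKM (SD, n = 3), followed by *Srsf6* at 25.1 ± 0.950 RPKM. *Srsf2*, *Srsf3* and *Srsf5* followed at 19.99 to 21.2 RPKM, where each neighbour in the order overlapped with the next. *Srsf7* at 8.48 RPKM and *Srsf9* at 6.68 RPKM stood apart from their neighbours, *Srsf10* at 4.56 RPKM and *Srsf11* at 4.49 RPKM overlapped, and *Srsf4* was the lowest at 2.00 ± 0.154 RPKM. In KD the order differed in that *Srsf1*, *Srsf6* and *Srsf2* overlapped as neighbours, and that *Srsf11* stood before *Srsf10*, again with overlapping libraries. Over all accessions, the span between the most and the least abundant member was thus over 10 times in either group. With RefSeq mRNAs alone it was smaller. In controls it then ran from 2.82 RPKM in *Srsf4* to 25.2 RPKM in *Srsf1*, and in KD from 3.52 RPKM in *Srsf4* to 32.6 RPKM in *Srsf2*.

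All 10 genes span less than 30 kb. Their spans in Gencode vM21 ran from 3.19 kb in *Srsf2* (chr11:116849901-116853094, minus strand) to 28.1 kb in *Srsf4* (chr4:131873617-131901706, plus strand). *Srsf7* lies on the minus strand at chr17:80200080-80207307 and *Srsf11* on the minus strand at chr3:158010473-158036639. Genes of these spans had slightly higher fold changes than all 11701 genes tested, whose median was 0.028 (log2). The median was 0.077 over the 2543 tested with a span under 10 kb and 0.10 over the 3038 of 10 to 30 kb. Longer genes were not summarised as a class. The 6 SR genes under 10 kb had a median of 0.30, with 2 called higher, where 13.1% of the class were called higher. The 4 SR genes of 10 to 30 kb had a median of 0.20, with 1 called higher, where 16.4% of the class were. The part of gene length in the result was not tested further.

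Promoters of *Srsf2* and *Srsf7* are shown because these are the called genes with the highest log2 fold changes of RPKM + 1. The sequences are the 250 bases before the RefSeq start (GRCm38.p6), 5′ to 3′ on the strand of the gene, with each match to a searched motif in capitals.
Srsf2, chr11:116853095-116853344, minus strand: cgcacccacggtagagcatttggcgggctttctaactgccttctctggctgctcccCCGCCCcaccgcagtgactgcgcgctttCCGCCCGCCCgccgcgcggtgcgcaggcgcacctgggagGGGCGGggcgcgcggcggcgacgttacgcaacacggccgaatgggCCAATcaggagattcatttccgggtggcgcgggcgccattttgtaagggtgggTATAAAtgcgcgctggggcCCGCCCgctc
Srsf7, chr17:80207306-80207555, minus strand: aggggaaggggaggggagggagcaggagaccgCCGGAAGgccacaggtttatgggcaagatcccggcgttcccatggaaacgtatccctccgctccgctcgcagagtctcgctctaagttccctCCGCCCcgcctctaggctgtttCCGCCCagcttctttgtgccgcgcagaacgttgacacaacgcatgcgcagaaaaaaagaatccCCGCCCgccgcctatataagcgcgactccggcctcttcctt
The motifs searched on both strands were the GC box GGGCGG, the CCAAT box CCAAT, the TATA box TATAAA, the E box CACGTG and the ETS site CCGGAAG. The *Srsf2* window has 5 GC boxes, 2 of which overlap each other, with 1 CCAAT box and 1 TATA box. The *Srsf7* window has 3 GC boxes and 1 ETS site. Promoter windows of all 10 members were found. A GC box was in 9 of the 10, beside 32.7% of all 32851 windows of this length. An ETS site was in 4 of 10 (6.91% of all), a CCAAT box in 3 (33.9%), a TATA box in 2 (12.4%) and an E box in 0 (6.02%). The set of all windows was not limited to genes past the filter and can hold several starts of a gene, while each member was taken at a single start. These shares are therefore not matched to the members. *Srsf5*, which was not called, also has 3 GC boxes and has 2 ETS sites, so that these letters did not separate the called genes from it.

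At the level of transcript accessions, the rise of *Srsf7* and *Srsf2* was spread over the whole gene. The 126 accessions of the 10 genes comprise 61 GenBank clones, 19 RefSeq mRNAs, 3 RefSeq noncoding RNAs and 43 Ensembl transcripts. Of 117 accessions whose mean RPKM reached 1, 63 were higher in every KD library than in every control, and 0 were lower. Over all accessions past this filter, 21.6% were higher and 23.6% lower in this sense. Accessions of a gene share reads and are not independent, so that these counts describe genes rather than separate transcripts. In *Srsf7* all 12 accessions were higher without overlap, with folds of 1.40 to 1.71, and in *Srsf2* all 8, with folds of 1.28 to 1.41. *Srsf11* had 13 of 21 accessions in this class, *Srsf1* 10 of 14, *Srsf6* 7 of 9, *Srsf9* 5 of 6, *Srsf10* 4 of 23, *Srsf4* 3 of 5, *Srsf3* 1 of 12 and *Srsf5* 0 of 16.

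**Figure D3:**
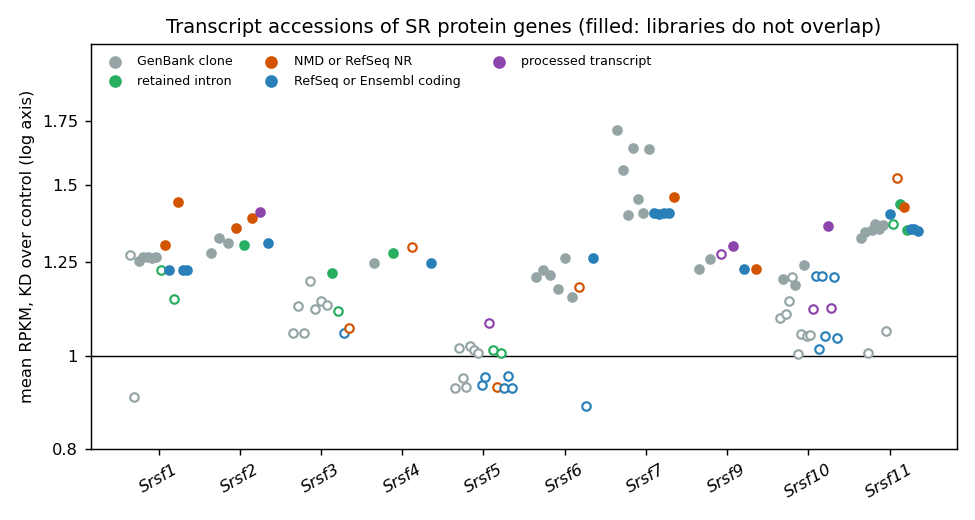
Mean RPKM in *Ctcflos* KD over that in controls (log axis) for the 117 accessions with a mean RPKM of at least 1, coloured by kind of transcript and filled where KD and control libraries do not overlap. All 12 accessions of *Srsf7* and all 8 of *Srsf2* are filled, and none of *Srsf5*.

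The accessions of *Srsf7* did not rise by the same fold. Its 4 RefSeq mRNAs had folds of 1.40, and the RefSeq noncoding RNA NR_036615, which carries the poison exon shown above, had a fold of 1.46. The GenBank clone AK032861 had the highest fold, 1.71, with 14.04, 14.6 and 11.9 RPKM in KD and 7.94, 8.30 and 7.44 RPKM in controls. Its share of the summed RPKM of the gene went from 7.76% in controls to 8.87% in KD (exact permutation p = 0.1, the smallest possible). In all, 4 clones had a higher share without overlap and 7 accessions a lower one, among them the 4 mRNAs and NR_036615. What sequence sets these clones apart was not analysed here.

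Across the family the shares shifted by small amounts. Of 126 accessions, 8 had a higher and 19 a lower share without overlap between the groups. This held for 6.89% and 7.07% of the 74016 accessions in genes with several accessions and a mean RPKM of at least 1. *Srsf7* alone gave 4 of the higher and 7 of the lower shares, and shares within a gene are not independent. The shift with the highest absolute value was 1.53 percentage points, for the clone AK040467 of *Srsf11*, which went from 6.21 to 4.68%. Its RPKM was 7.14, 4.62 and 5.92 in KD and 6.02, 6.26 and 5.29 in controls, so that its own level overlapped, while 13 of the 21 accessions of the gene were higher without overlap. The clone AK163152 of *Srsf11* overlapped as well, with a fold of 1.06, and its share also fell, from 3.29 to 2.63%. limma diffSplice, which tests whether accessions of a gene change unequally, called 0 of the 10 genes, where 0.738% of 10027 genes were called. The gene-level p was under 0.05 unadjusted in diffSplice for *Srsf6* (adjusted p = 0.267, limma) and *Srsf1* (adjusted p = 0.331, limma). The unadjusted p was under 0.05 for 3.45% of all genes tested for usage. In *Srsf1* the clone AK017754 fell behind the gene, from 1.27 to 0.913% of the summed RPKM, and *Srsf1* was called when KD replicate 3 was left out (adjusted p = 0.00462).

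The poison forms were then compared with the coding forms. For *Srsf7*, NR_036615 stood at 94.0, 95.9 and 93.3% of the mean RPKM of the RefSeq mRNAs in KD and at 90.2, 91.7 and 90.8% in controls. These groups did not overlap (94.4 ± 1.37% and 90.9 ± 0.771%, SD, n = 3, exact permutation p = 0.1), which held for 8.33% of 192 genes with both kinds of RefSeq accession in the direction of higher KD. For *Srsf3*, NR_036613 was at 93.2, 93.6 and 91.7% of the mRNA in KD and at 91.1, 91.8 and 91.9% in controls, and the groups overlapped. For *Srsf9* the ratio of NR_036616 to the mRNA was 92.8% in each of the 3 controls (SD 6.1e-06%) and 92.8 to 92.9% in KD. A ratio this constant does not measure 2 forms separately. Gencode also ties no RefSeq RNA to the NMD transcript of *Srsf9*, so that a poison form of this gene was not compared here. Reads of shared exons can enter both sides of these ratios, and the ratios do not give the inclusion of a poison exon.

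In Ensembl transcripts, the ratio of unproductive (NMD and retained intron) to coding transcripts could be formed for 4 members. It overlapped between the groups for *Srsf1* (99.1, 100.1 and 96.3% in KD, 88.8, 102.2 and 96.2% in controls), for *Srsf5* and for *Srsf11*. For *Srsf6* it was 1056, 1261 and 1297% in KD and 952, 825 and 945% in controls. This did not overlap, as for 7.98% of 2129 genes in the direction of higher KD, and its adjusted p by limma was 0.341. Retained intron transcripts alone gave no member without overlap, where 8.51% of genes were higher in this sense. The only Ensembl coding accession of *Srsf6* in the table has a mean of 2.98 RPKM, far below the other accessions, and with RefSeq mRNAs included the ratio was 242, 261 and 244% in KD and 240, 258 and 269% in controls. With RefSeq accessions included, 9 members had a ratio, and it was higher without overlap only for *Srsf7*, as for 8.36% of 3276 genes. limma called 0 of 2129 genes for this ratio, with 183 at an unadjusted p under 0.05.

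Single NMD transcripts had few reads in some members. On ENSMUST00000126716 of *Srsf11*, whose poison exon is shown above, 88, 74 and 47 reads were recovered in KD and 42, 63 and 46 in controls, and on ENSMUST00000129966 of *Srsf4*, 94, 48 and 37 reads in KD and 46, 60 and 39 in controls. Both overlapped between the groups. ENSMUST00000147304, the other *Srsf11* form shown, had 1.59, 1.63 and 1.39 RPKM in KD and 1.01, 1.29 and 0.933 RPKM in controls, without overlap, and its share of the gene overlapped. ENSMUST00000172186 of *Srsf1* had 12.95, 12.36 and 12.35 RPKM in KD and 7.93, 10.2 and 8.01 RPKM in controls, the highest fold of the *Srsf1* accessions at 1.44. Its share of the gene overlapped, at 2.90, 2.41 and 2.19% in KD and 1.98, 2.40 and 2.05% in controls. The other NMD transcript of *Srsf1*, ENSMUST00000134824, had a fold of 1.30, and its share overlapped as well.

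The genes around the SR proteins moved in both directions. Among 28 tested of 29 genes of SR-related proteins, which carry RS domains without being classical members or work with them, 9 were called higher and 2 lower (limma), with a median log2 fold change of 0.21. Over all genes, 11.5% were called higher and 12.4% lower. *Thrap3*, a speckle protein in splicing and mRNA decay that also binds nuclear receptors, had the largest absolute log2 fold change of RPKM + 1 in the list, with 11.9, 13.4 and 10.2 RPKM in KD and 6.09, 6.87 and 6.60 RPKM in controls (log2 fold change 0.76 with a standard error of 0.120, adjusted p = 0.00766, limma). *Snrnp70*, the U1 snRNP protein that SR proteins contact at the 5′ splice site, had 2.61, 2.90 and 3.99 RPKM in KD and 5.62, 5.86 and 5.30 RPKM in controls and fell by 0.68 on the log2 scale (adjusted p = 0.0133, limma). *Rsrc1*, an RS-rich protein in the recognition of the 3′ splice site, fell by 0.64, with 0.447, 0.542 and 0.910 RPKM in KD and 1.503, 1.45 and 1.62 RPKM in controls (adjusted p = 0.0119, limma). As ratios of mean RPKM, *Thrap3* was at 1.81 times and *Rsrc1* at 0.416 times the control, and *Cherp*, which was not called, at 2.45 times. *Thrap3* was called in all 12 alternatives, and the count of genes called higher in this list was 1 to 4 without any library other than KD replicate 3. The others called higher were *Scaf11*, *Pnn*, *Bclaf1*, *Luc7l*, *U2af2*, *Arglu1*, *Tra2b* and *Rnps1*, with log2 fold changes of 0.35 to 0.61. Of these, *Bclaf1* and *Luc7l* were called in 10 of 12 alternatives, *Rnps1* in 3, *Tra2b* in 4 and the rest in 5 to 7. *Scaf11* had adjusted p of up to 0.572 (limma). *Snrnp70* was called in 10 of 12 and lost without control replicate 1 or 3.

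Of the kinases that phosphorylate SR proteins, *Srpk1* and *Srpk2* fell. *Srpk1* had 2.04, 2.37 and 2.29 RPKM in KD and 4.36, 3.69 and 4.87 RPKM in controls. This is 0.519 times the control mean without overlap (log2 fold change -0.71 with a standard error of 0.110, adjusted p = 0.00743, limma). *Srpk2* had 2.06, 1.93 and 2.30 RPKM in KD and 3.12, 3.10 and 3.05 RPKM in controls (log2 fold change -0.40, adjusted p = 0.0184, limma). The nuclear kinase genes *Clk1*, *Clk2*, *Clk3* and *Clk4* were not called, with log2 fold changes of 0.00, 0.35, 0.26 and 0.12. *Ppp1r8* (NIPP1), a nuclear regulatory subunit of protein phosphatase 1, rose by 0.62 on the log2 scale, from 4.83 to 8.05 RPKM (adjusted p = 0.0193, limma), and the importer *Tnpo3* was at -0.09 (adjusted p = 0.509). In all, 1 of 12 tested genes of this list of 14 was called higher and 2 lower, with a median of 0.017, against 11.5% higher and 12.4% lower over all genes, so that these shares are near the background. *Srpk1* was called in all 12 alternatives, with adjusted p of 0.00301 to 0.0490 (limma). *Srpk2*, at up to 0.0840, and *Ppp1r8*, at up to 0.0887, were not called when any library other than KD replicate 3 was left out.

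In the list of NMD factors and the exon junction complex, which marks spliced mRNA, 3 of 13 tested genes out of 15 were called higher and 0 lower, with a median log2 fold change of 0.26, where 11.5% of all genes were called higher and 12.4% lower. These were *Smg8*, which regulates the NMD kinase SMG1 (log2 fold change 0.51, adjusted p = 0.0290, limma), and the junction complex subunits *Magoh* (0.48, adjusted p = 0.0358) and *Casc3* (0.44, adjusted p = 0.0267). By unadjusted p under 0.05, 4 were higher and 1 was lower, the endonuclease gene *Smg6* (-0.38, adjusted p = 0.0573). This unadjusted threshold was met, in either direction, by 38.9% of all genes tested. When any library other than KD replicate 3 was left out, 0 or 1 of this list was called higher. The central helicase gene *Upf1* was at 0.46 (adjusted p = 0.136, limma). The architectural RNA *Neat1* of paraspeckles and the speckle RNA *Malat1* were not called by limma, adjusted or unadjusted. *Malat1* was at 1343, 1027 and 1447 RPKM in KD and 1092, 1220 and 1012 RPKM in controls. *Neat1* was at 53.7, 36.0 and 65.6 RPKM in KD and 71.0, 78.5 and 59.1 RPKM in controls.

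**Figure D4:**
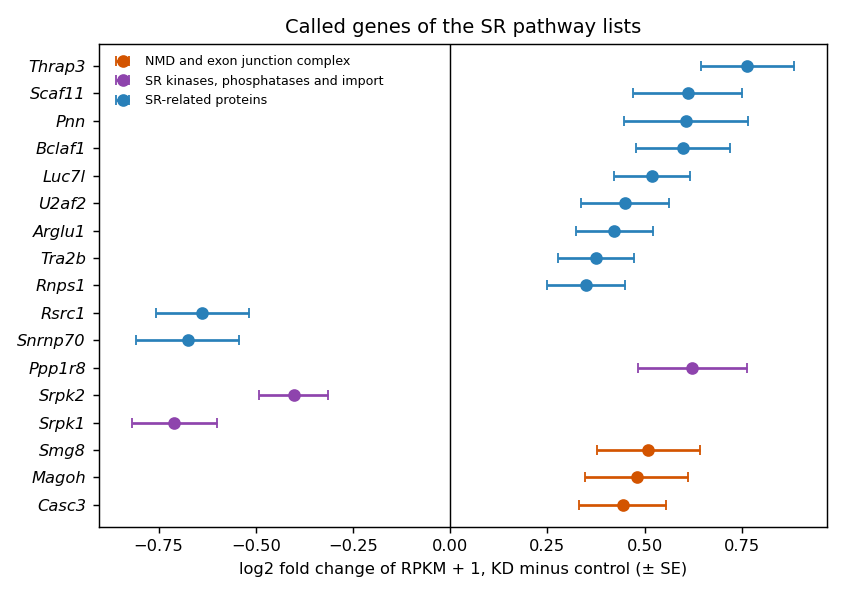
Log2 fold change of RPKM + 1 with its standard error for the 17 genes of the pathway lists with an adjusted p under 0.05 in limma, coloured by list. *Thrap3* at 0.76 is the highest and *Srpk1* at -0.71 the lowest, and both SRPK genes lie on the side opposite to *Srsf7*, *Srsf2* and *Srsf11*.

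The centred log2 values of the 10 SR genes averaged 0.12, 0.15 and 0.12 in KD and -0.13, -0.083 and -0.17 in control replicates 1 to 3. The 5 other genes whose log2 values followed this profile most closely were *Tfpi2*, *Ipo7*, *Zfp60*, *Prkg2* and *Wdr55*, with Pearson's r of 0.998 to 0.994. This is a description over 6 libraries that share their 2 groups, in which any gene with a clean difference between the groups comes close to the profile. *Tfpi2*, an extracellular protease inhibitor, had 14.4, 14.9 and 14.6 RPKM in KD and 8.58, 9.63 and 7.62 RPKM in controls, and *Ipo7*, a nuclear import receptor, had 10.04, 10.6 and 10.1 RPKM in KD and 7.21, 7.56 and 7.01 RPKM in controls.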

How the data were processed

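The authors deposited a table of RPKM values, with decimal commas, per transcript accession (RefSeq, Ensembl or GenBank) in 6 libraries made with a kit for stranded total RNA. How this table was made is not given in the sources used here. For their splice analysis, the authors aligned 150 bp paired-end reads with STAR_2.5.3a to GRCm38. Replicates were not pooled. Of 168326 lines, 305 exact repeats were removed. The depth was recovered from low values of Ensembl transcripts with a Gencode vM21 length, at least 96.4% of which were whole reads within 0.1.

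Because the table holds RPKM and no counts, abundance was tested with limma-trend on log2(RPKM + 1), a scale that understates changes of low genes, where the mean RPKM was 1 or more, and usage with limma diffSplice on log2(RPKM + 0.1). Benjamini-Hochberg adjustment ran over all genes tested, with a threshold of 0.05. Single values were compared by exact two-sided permutation tests, for which 0.1 is the smallest p. Groups came from the sample labels. Replicate numbers occur in both groups, but the deviations of same-numbered libraries from the group means correlated at 0.287, -0.288 and -0.418 for replicates 1, 2 and 3, so that the numbers were not taken to pair the libraries. Methods were tested on simulated data. R 4.3.3, limma 3.58.1, Python 3.11.15, pandas 2.3.3 and scipy 1.17.1 were used.

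The SR genes and the lists were chosen with earlier results of these data known. Named genes are the 10 members, *Ctcflos*, up to 3 called genes of each list with the largest absolute log2 fold change, the 5 most alike genes, and the accession with the largest share shift in members named for their shares. Other genes and accessions were named after their values were seen. Alternatives were another pseudocount, no filter, the replicate number as a block, median-of-ratios scaling, RefSeq mRNAs alone, the median over accessions, other sets of unproductive transcripts, and leaving out each library. RefSeq accessions in the unproductive ratio and limma on this ratio were added after seeing the data.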

Additional observations from a re-analysis of the deposited data

How the results depend on the processing

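The median log2 fold change of the SR genes was 0.24 to 0.32 over all alternatives, with at least 9 of 10 values positive. The count of 3 called genes was less stable: it was 1 (*Srsf7*) without a filter, 1 with scaling by the median of ratios and 1 with the replicate number as a block, and 0 to 4 with each library left out in turn. Among the results compared, only *Srsf5* changed direction, at -0.095 to 0.053 with a library left out and above 0 without KD replicate 1. Leaving out libraries gave 0 to 1 genes called for usage (*Srsf1* without KD replicate 3), 32 to 56 accessions with shares that did not overlap, where 27 were found with all libraries, and 1 to 3 genes with an unproductive ratio that did not overlap. With retained intron transcripts alone or limma on the ratio, the last count was 0. *Ctcflos* was at -0.66 (adjusted p = 0.114, limma) with the replicate block and at -0.72 to -0.63 with a library left out, where the adjusted p was over 0.05 except without KD replicate 3. With the block, 5 SR-related genes and 1 NMD gene were called higher and 1 kinase gene lower. With a library left out, 1 to 11 SR-related genes were called higher and 0 to 3 lower, 0 to 3 genes of the kinase list higher and 1 to 2 lower, and 0 to 5 NMD genes higher and 0 to 1 lower. In the list of speckle and paraspeckle RNAs, 0 to 1 were then called lower. The cause of these shifts was not tested. The block changed no usage call. At this depth single NMD transcripts of *Srsf4* and *Srsf11* rest on 23 to 136 reads, which limits the comparison of their poison forms.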
